A study of Homo sapiens with 12 samples.

Results

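The zinc finger gene cluster around ZNF616 is a stretch of 2.009 Mb on the long arm of chromosome 19, in bands 19q13.41 and 19q13.42 (chr19:51571298-53580269, GRCh38), and is described here by 38 zinc finger genes, out of 23583 features in the count table. The members were listed by name and position, ZNF175 at the centromeric end and ZNF331 at the telomeric end, and the list was chosen by their CPM (counts scaled to a common library size) in all 4 groups of the study, so the differences between groups given for them are a description and support no claim about the list. Of the 38, 35 passed the filter on low counts, and the other 3 (ZNF534, ZNF578 and ZNF677) were under 10 counts in every library. RNA was sequenced in 4 groups of 3 libraries, HCCLM3 cells with an siRNA against circASH2 (si-circASH2), HCCLM3 cells with a negative control siRNA (si-NC), Huh7 cells with si-circASH2 and Huh7 cells with si-NC. HCCLM3 and Huh7 are human hepatocellular carcinoma cell lines, and circASH2 is a circular RNA of the ASH2L gene. No row of the table measures circASH2, so its level is not analysed here. The study has no cells without an siRNA, so a higher level with si-circASH2 and a lower level with si-NC cannot be told apart.

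Most genes of this cluster encode KRAB zinc finger proteins. In such a protein an array of C2H2 zinc fingers binds DNA, often within transposable elements, and a KRAB domain recruits the corepressor TRIM28, which in turn brings the histone methyltransferase SETDB1 and heterochromatin proteins. The family grew by tandem duplication of whole genes, so neighbours on chromosome 19 resemble each other in sequence, and the linker between consecutive fingers is among the best kept stretches.

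ZNF616 lies on the minus strand within the centromeric part of the cluster, between ZNF841 and ZNF836. Its coding sequence holds an 8-base sequence, TCGGAGAA, that an earlier look at these libraries had singled out, so its presence here is no independent evidence. The coding sequences were searched on the sense strand only, and 4 of the 38 cluster genes held it: 3 copies in ZNF616, 2 in ZNF836, and 1 each in ZNF841 and ZNF613. ZNF841, ZNF616 and ZNF836 are adjacent, while ZNF350, ZNF615, ZNF614 and ZNF432, with no copy, lie between ZNF613 and ZNF841. No other member held a copy in its coding sequence and none held one in its 3′ untranslated region. The sites are shown because the size of the difference between siRNA groups is set beside them further on. Each is given with its flanks from the GRCh38 genome, and the capitals mark the 8 bases.
ZNF613: ctcaacagacaTCGGAGAActcatacaggg
ZNF841: ctggcaaggcaTCGGAGAAttcatactgga
ZNF616 copy 1: cttgcagtgcaTCGGAGAAttcatactgga
ZNF616 copy 2: tttgcaaggcaTCGGAGAAttcatactgga
ZNF616 copy 3: cttacagtgcaTCGGAGAAttcatagtgga
ZNF836 copy 1: cttgtggggcaTCGGAGAAttcatactgga
ZNF836 copy 2: cttgcaaggcaTCGGAGAAttcacactgga
The 3 copies in ZNF616 start at bases 1533, 1617 and 1701 of its coding sequence, 84 bases apart, at chr19:52115624-52115631, chr19:52115540-52115547 and chr19:52115456-52115463 on the minus strand. Both copies in ZNF836 (chr19:52156212-52156219 and chr19:52155372-52155379) and the copy in ZNF841 (chr19:52065610-52065617) are also on the minus strand. The copy in ZNF613 is on the plus strand, at chr19:51945389-51945396.

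The libraries held 29006781 to 30858895 counts each, and 3 counts in 1 library corresponded to 0.0981 to 0.105 CPM. Summed hepatocyte markers (12 genes) were at 204 to 206 CPM in HCCLM3 si-circASH2 and 191 to 197 CPM in HCCLM3 si-NC, but at 37377 to 38072 CPM in Huh7 si-circASH2 and 39697 to 40006 CPM in Huh7 si-NC, so the hepatocyte programme was low in HCCLM3. Summed epithelial markers (4 genes) lay between 2927 and 5600 CPM in every library, and all 4 were detected in every group. KRT8 and KRT18 made most of this sum and were higher in HCCLM3 si-NC than in Huh7 si-NC. The other markers were lower there, EPCAM at 0.34 CPM in HCCLM3 si-NC against 29.1 CPM in Huh7 si-NC. CDH1 was at 8.65 CPM in HCCLM3 si-NC against 116 CPM in Huh7 si-NC. Markers of fibroblasts (6 genes, 34.3 to 57.7 CPM summed), endothelium (4 genes, 19.6 to 27.8 CPM) and leukocytes (5 genes, 21.9 to 208 CPM) were lower than the epithelial sum in every library. The fibroblast sum was 48.9 to 53.5 CPM in HCCLM3 si-circASH2 against 35.6 to 37.9 CPM in HCCLM3 si-NC, and 56.7 to 57.7 CPM in Huh7 si-circASH2 against 34.3 to 40.1 CPM in Huh7 si-NC. The leukocyte sum was 171 to 208 CPM in HCCLM3 si-circASH2 against 143 to 165 CPM in HCCLM3 si-NC, and 38.3 to 42.6 CPM in Huh7 si-circASH2 against 21.9 to 23.3 CPM in Huh7 si-NC. In HCCLM3, LUM alone made most of the fibroblast sum (48.4 CPM with si-circASH2 and 34.3 CPM with si-NC) and CD68 most of the leukocyte sum (187 CPM with si-circASH2 and 154 CPM with si-NC). In Huh7, COL1A2 made most of the fibroblast sum (38.9 CPM with si-circASH2 and 24.4 CPM with si-NC) and CD68 most of the leukocyte sum (38.6 CPM with si-circASH2 and 20.7 CPM with si-NC). CD3E and MS4A1, which define T cells and B cells, were at 0 in every group, and PTPRC, the pan-leukocyte gene, was under 1 CPM in each. The part of these markers in the results below was not tested. In bulk RNA fewer cells with a transcript and less of it per cell cannot be told apart, and the labels do not tie the 3 libraries of a group to separate cultures, so p-values measure only the spread between libraries, which may be technical.

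ZNF616 differed most between the siRNA groups among the cluster genes with at least 10 counts in a library of each line. In HCCLM3, ZNF616 was at 28.2, 30.4 and 29.5 CPM with si-circASH2, against 13.32, 13.8 and 12.6 CPM with si-NC. In Huh7 it was at 8.50, 9.91 and 8.34 CPM with si-circASH2, against 2.89, 3.21 and 4.001 CPM with si-NC. In both lines the lowest si-circASH2 library lay above the highest si-NC library. The log2 fold change (si-circASH2 over si-NC) was 1.15 ± 0.09 in HCCLM3 and 1.41 ± 0.11 in Huh7 (± standard error, n = 3 in each group). Their difference, HCCLM3 minus Huh7, was -0.25 ± 0.14 on the log2 scale and did not pass the threshold of 0.05 on the adjusted p of edgeR's quasi-likelihood test.

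Next to ZNF616 on the centromeric side, ZNF841 was at 52.7, 51.2 and 47.8 CPM in HCCLM3 si-circASH2, against 44.5, 46.3 and 41.9 CPM in HCCLM3 si-NC. In Huh7, ZNF841 was at 13.99, 13.35 and 13.6 CPM with si-circASH2, against 9.32, 9.55 and 9.77 CPM with si-NC. Its log2 fold change was 0.19 ± 0.06 in HCCLM3 and 0.52 ± 0.07 in Huh7, both past the threshold, and the groups overlapped in neither line. In HCCLM3 it no longer passed without HCCLM3 si-circASH2 replicate 1 or HCCLM3 si-NC replicate 3 (0.16 in each case). On the telomeric side ZNF836 was at 10.5, 9.82 and 10.4 CPM in HCCLM3 si-circASH2 against 7.37, 8.16 and 6.70 CPM in HCCLM3 si-NC, a log2 fold change of 0.47 ± 0.16 that passed. Without HCCLM3 si-circASH2 replicate 1 or 3, or HCCLM3 si-NC replicate 1 or 3, it no longer passed (0.40 to 0.46). In Huh7 it was low, at 2.40, 1.52 and 1.20 CPM with si-circASH2 against 1.12, 1.002 and 1.44 CPM with si-NC, the groups overlapped, and the value of 0.52 ± 0.22 did not pass. So the genes on both sides of ZNF616 showed smaller differences than ZNF616 itself.

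**Figure D1:**
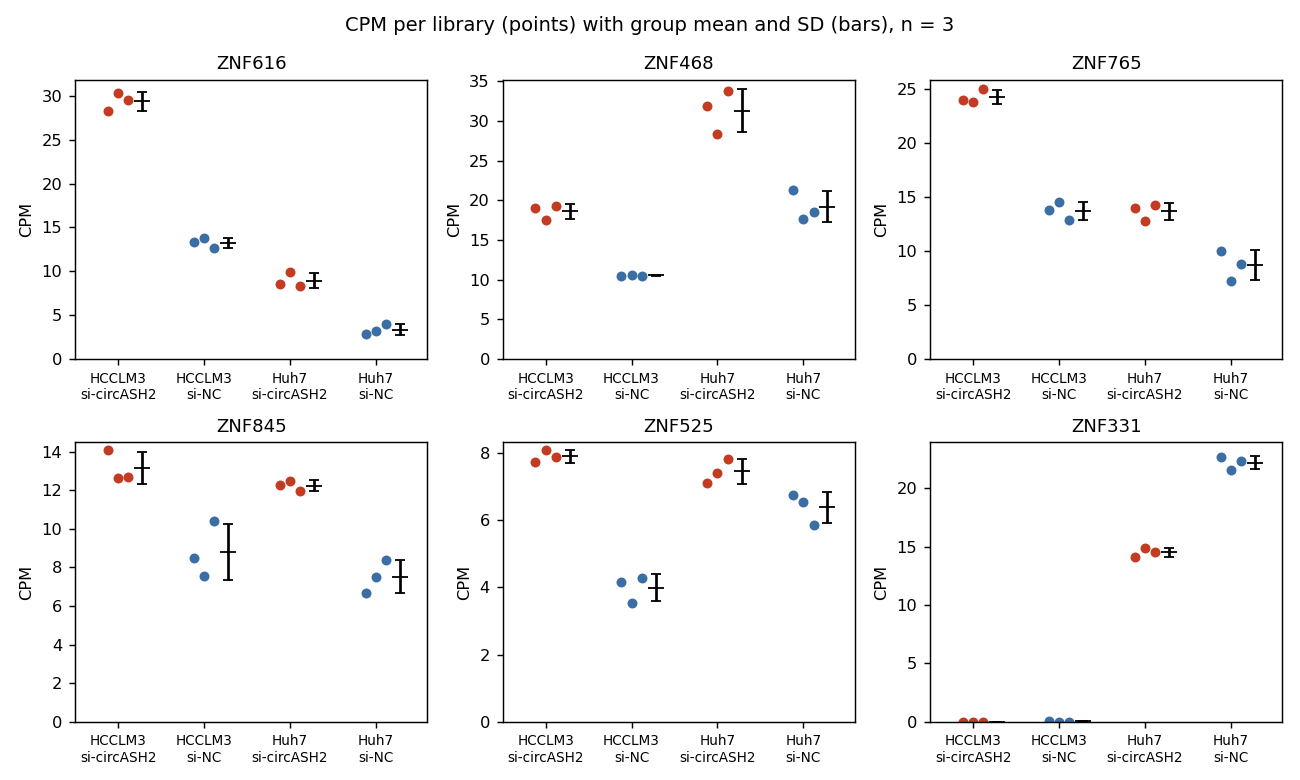
CPM of ZNF616, ZNF468, ZNF765, ZNF845, ZNF525 and ZNF331 in each library (points, red for si-circASH2, blue for si-NC) with the group mean and SD (black bars, n = 3). For ZNF616 the HCCLM3 si-circASH2 libraries sit between 28.2 and 30.4 CPM and the HCCLM3 si-NC libraries between 12.6 and 13.8 CPM, and ZNF331 is near 0 in HCCLM3 and lower with si-circASH2 than with si-NC in Huh7.

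Further from ZNF616, 4 members of the telomeric part had the next largest values past the threshold in HCCLM3 at 1 CPM or more (ZNF525, ZNF468, ZNF765 and ZNF845), and 3 of them passed in Huh7 too. ZNF468 was at 19.1, 17.5 and 19.3 CPM in HCCLM3 si-circASH2, against 10.5, 10.6 and 10.5 CPM in HCCLM3 si-NC. In Huh7 ZNF468 was at 31.8, 28.4 and 33.7 CPM with si-circASH2, against 21.4, 17.7 and 18.6 CPM with si-NC. Groups did not overlap in either line, and the log2 fold changes were 0.82 ± 0.09 in HCCLM3 and 0.71 ± 0.08 in Huh7. ZNF765 was at 24.01, 23.9 and 25.02 CPM in HCCLM3 si-circASH2 against 13.9, 14.6 and 12.9 CPM in HCCLM3 si-NC. In Huh7 ZNF765 was at 13.99, 12.8 and 14.3 CPM with si-circASH2 against 10.01, 7.25 and 8.82 CPM with si-NC. Its log2 fold changes were close in the lines, 0.82 ± 0.09 in HCCLM3 and 0.66 ± 0.10 in Huh7. ZNF845 was at 14.1, 12.6 and 12.7 CPM in HCCLM3 si-circASH2 against 8.48, 7.56 and 10.4 CPM in HCCLM3 si-NC, and at 12.3, 12.5 and 11.9 CPM in Huh7 si-circASH2 against 6.66, 7.51 and 8.40 CPM in Huh7 si-NC. Its values were 0.57 ± 0.11 in HCCLM3 and 0.70 ± 0.11 in Huh7. None of these 3 genes held TCGGAGAA in its coding sequence or 3′ untranslated region.

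ZNF525, beside ZNF765, was the member whose difference depended most on the line among those past the threshold for that difference. It was at 7.73, 8.09 and 7.89 CPM in HCCLM3 si-circASH2, against 4.17, 3.535 and 4.28 CPM in HCCLM3 si-NC. In Huh7 ZNF525 was at 7.11, 7.42 and 7.84 CPM with si-circASH2, against 6.76, 6.54 and 5.87 CPM with si-NC. The log2 fold change was 0.98 ± 0.12 in HCCLM3, which passed, and 0.22 ± 0.12 in Huh7, which did not. The deposited FPKM, the authors' values scaled for gene length and library size, averaged 1.67 ± 0.30 in Huh7 si-circASH2 and 1.98 ± 0.86 in Huh7 si-NC (SD, n = 3), so on that scale the groups did not separate in Huh7. Without Huh7 si-NC replicate 3 the si-NC mean was 1.51 FPKM, below that of si-circASH2. The annotated span of ZNF525 overlaps that of ZNF765 by 2425 bases on the same strand, and the labels do not say how shared reads were counted. The spans of ZNF28, ZNF468 and ZNF320 also overlap in this way, as do those of ZNF432 and ZNF841. The same holds for ZNF577 and ZNF649, for ZNF808 and ZNF701, and for ZNF415 and ZNF347. Values of all these genes are uncertain to that extent.

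ZNF331, an imprinted gene at the telomeric end, was the 1 member that fell past the threshold. In Huh7 it was at 14.1, 14.9 and 14.5 CPM with si-circASH2, against 22.7, 21.5 and 22.4 CPM with si-NC, and the log2 fold change was -0.61 ± 0.11. In HCCLM3 it had no count with si-circASH2 and 3 counts in 1 library with si-NC, so no change could be measured there.

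Over the cluster, in HCCLM3, 13 of 35 tested members rose with si-circASH2, none fell and 22 did not pass, where 15.1% of all 16946 tested features rose and 15.5% fell. At an unadjusted p under 0.05, 3 members were lower (ZNF432, ZNF320 and ZNF331), of which ZNF320 and ZNF331 had at most 6 counts in a group. With DESeq2 1 member was lower. The call of ZNF880 in HCCLM3 rests on 5 counts with si-circASH2 against 0 with si-NC. In Huh7, 16 of 35 members rose, 1 fell and 18 did not pass, where 16.3% of all tested features rose and 15.1% fell. As the members were chosen with these values known, nothing is read from the gap between the shares. The median log2 fold change in HCCLM3 was 0.23 over the 25 members with at least 10 counts in an HCCLM3 library, beside 0.00 over all tested features. In Huh7 it was 0.35 over the 35 members, beside 0.01 over all tested features.

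Of the 25 members measured in HCCLM3, 12 rose in HCCLM3 and 12 in Huh7, where 15.1% and 16.3% of all tested features rose. In both lines 9 rose (75% of each list): ZNF350, ZNF841, ZNF616, ZNF480, ZNF28, ZNF468, ZNF845, ZNF765 and ZNF761. The share of all tested features that rose in both lines is not given here, so nothing is read from this overlap. ZNF350 (ZBRK1, a repressor that binds BRCA1) had values of 0.30 ± 0.11 in HCCLM3 and 0.34 ± 0.13 in Huh7. Its calls were near the threshold: in HCCLM3 it no longer passed in 7 of the alternatives, among them leaving out any 1 HCCLM3 library (0.26 to 0.32), and in Huh7 in 12 of them, DESeq2 included (0.26 to 0.36). ZNF480, with the highest CPM of the members in each HCCLM3 library, was at 69.9, 65.5 and 63.5 CPM in HCCLM3 si-circASH2 against 56.5, 57.9 and 57.5 CPM in HCCLM3 si-NC. In Huh7 ZNF480 was at 38.8, 40.96 and 43.01 CPM with si-circASH2 against 31.2, 30.4 and 28.1 CPM with si-NC. Its log2 fold changes of 0.21 ± 0.05 in HCCLM3 and 0.45 ± 0.06 in Huh7 both passed. ZNF28 was higher by 0.38 ± 0.08 in HCCLM3 and by 0.26 ± 0.07 in Huh7, and ZNF761 by 0.45 ± 0.10 in HCCLM3 and by 0.33 ± 0.08 in Huh7.

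Other members passed in 1 of the lines. ZNF613 was at 8.34, 8.72 and 8.56 CPM in HCCLM3 si-circASH2 against 8.04, 7.35 and 6.97 CPM in HCCLM3 si-NC, and at 2.78, 3.35 and 4.20 CPM in Huh7 si-circASH2 against 2.03, 2.20 and 2.49 CPM in Huh7 si-NC. Its value was 0.20 ± 0.13 in HCCLM3 and 0.62 ± 0.16 in Huh7, and the second passed, though not without Huh7 si-circASH2 replicate 3 (0.45). ZNF528 gave 0.30 ± 0.13 in HCCLM3 and 0.53 ± 0.11 in Huh7, again past the threshold in Huh7. ZNF766 gave 0.23 ± 0.07 in HCCLM3, which passed, though not without HCCLM3 si-circASH2 replicate 3 or HCCLM3 si-NC replicate 1 (0.19 in each case), and 0.11 ± 0.08 in Huh7. ZNF83, ZNF320 and ZNF160 rose in Huh7 and were near or at 0 counts in HCCLM3, as was ZNF880, whose HCCLM3 call rests on 5 counts. ZNF600, at 18.1, 17.8 and 18.6 CPM in HCCLM3 si-circASH2 and 16.6, 19.005 and 19.1 CPM in HCCLM3 si-NC, gave -0.005 ± 0.10 in HCCLM3 and 0.38 ± 0.11 in Huh7, where it passed, though not without Huh7 si-NC replicate 2 (0.24).

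Among members that passed in neither line, ZNF175 (OTK18, known for repression of the HIV-1 promoter) gave -0.09 ± 0.13 in HCCLM3 and 0.23 ± 0.15 in Huh7. The values of ZNF615 were -0.05 ± 0.11 in HCCLM3 and -0.22 ± 0.13 in Huh7, and those of ZNF432 were -0.18 ± 0.08 in HCCLM3 and 0.15 ± 0.11 in Huh7. ZNF611, which binds SVA retrotransposons, gave 0.06 ± 0.14 in HCCLM3 and 0.22 ± 0.13 in Huh7. ZNF615, ZNF614 and ZNF432, all on the minus strand between ZNF350 and ZNF841, thus showed no call in either line, while genes on both sides of them did.

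**Figure D2:**
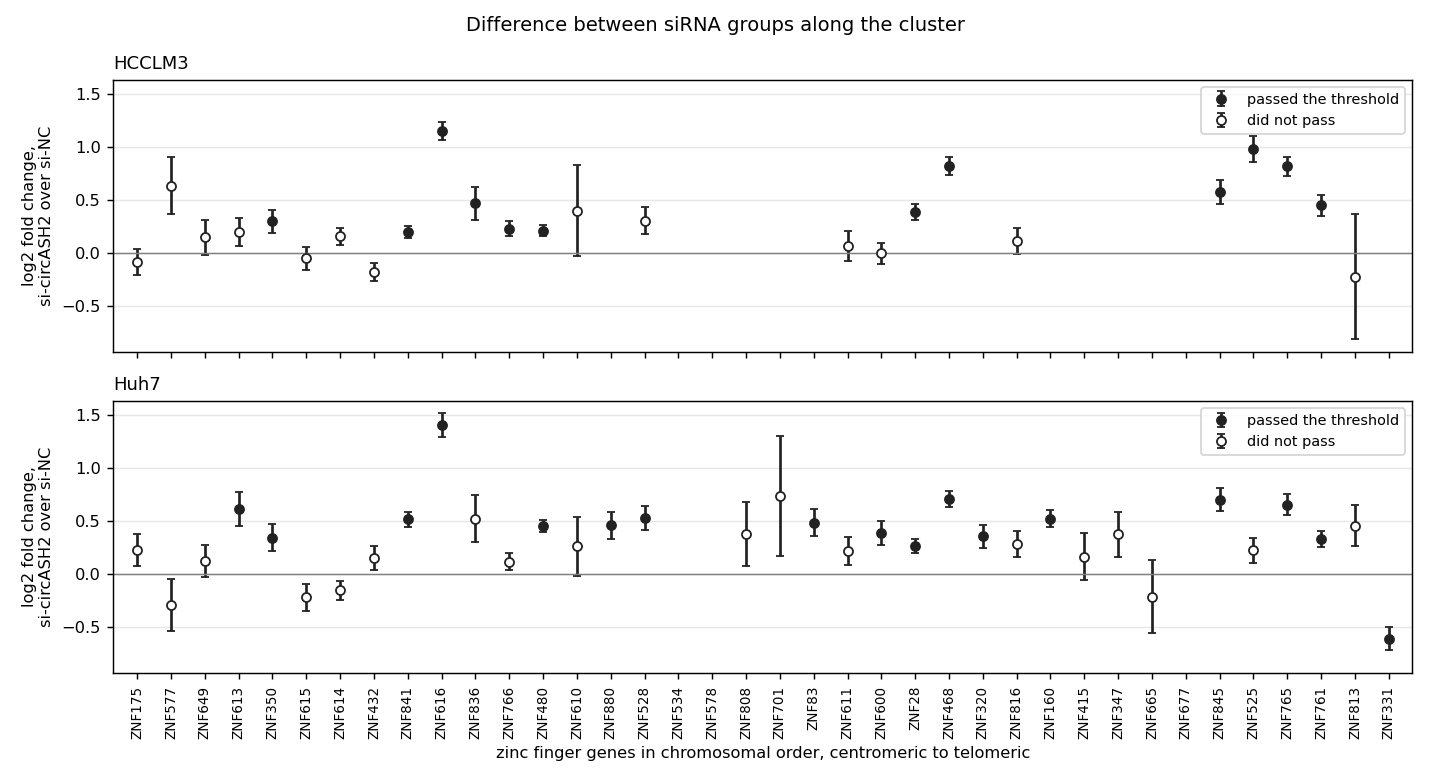
Log2 fold change (si-circASH2 over si-NC, vertical axis, ± standard error, n = 3 per group) of each member in chromosomal order, HCCLM3 above Huh7; filled points passed the threshold. ZNF616 stands highest in both panels (1.15 in HCCLM3 and 1.41 in Huh7), and members with under 10 counts in every HCCLM3 library are left out of the HCCLM3 panel.

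The difference between the lines in the siRNA effect passed for 3 members. It was positive for 1, ZNF525 (0.76 ± 0.17, HCCLM3 minus Huh7), where 9.6% of all tested features had a positive call. It was negative for 2, ZNF841 (-0.32 ± 0.09) and ZNF480 (-0.24 ± 0.08), where 11.3% of all tested features had a negative call. The call of ZNF480 was lost without HCCLM3 si-NC replicate 2, HCCLM3 si-circASH2 replicate 2, HCCLM3 si-circASH2 replicate 3, Huh7 si-NC replicate 3 or Huh7 si-circASH2 replicate 3 (-0.23 to -0.20). The other 32 tested members did not pass, which does not show that the lines acted alike.

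The number of copies of TCGGAGAA was set beside the size of the difference over all genes with a coding sequence that could be searched. Of 14041 such genes, 384 (2.73%) held at least 1 copy, and 2 held 3 or more, ZNF616 and ZNF267. The median log2 fold change was 0.00 in HCCLM3 and 0.00 in Huh7 over the 13657 genes with no copy. Over the 371 genes with 1 copy it was 0.10 in HCCLM3 and 0.10 in Huh7, and over the 11 genes with 2 copies it was 0.16 in HCCLM3 and 0.21 in Huh7. The bin of 11 genes is too thin for a trend, and the median coding length was 1419 bases with no copy and 2280 bases with 1. The bins with a copy include zinc finger genes. Over all 437 tested genes named ZNF and a number, whatever their copies, the median was 0.075 in HCCLM3 and 0.088 in Huh7. Copy number and gene family were not tested apart. The 8 bases had been singled out in these same libraries, so these medians are a description. ZNF267, a zinc finger gene outside the cluster with 3 copies, was at 26.8, 25.2 and 25.5 CPM in HCCLM3 si-circASH2, against 17.6, 16.9 and 15.5 CPM in HCCLM3 si-NC. In Huh7 it was at 14.3, 13.9 and 16.05 CPM with si-circASH2, against 6.59, 7.55 and 7.51 CPM with si-NC. Its log2 fold change was 0.63 ± 0.08 in HCCLM3 (edgeR adjusted p = 9.98e-07) and 1.03 ± 0.09 in Huh7 (edgeR adjusted p = 3.44e-09). ZNF267 was named here because it shares the copy number of ZNF616, after its values were seen.

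Within the cluster, the 4 members with a copy had a median of 0.33 in HCCLM3, with 3 past the threshold, and of 0.57 in Huh7, also with 3 past it. The 21 members without a copy that were measured in HCCLM3 had a median of 0.23 there, with 9 past the threshold, and the 31 without a copy in Huh7 had a median of 0.33, with 13 past it. Over all tested features 15.1% rose in HCCLM3 and 16.3% in Huh7. ZNF468, ZNF765 and ZNF845 had no copy and rose in both lines, so a copy is not found in every member that rose. No siRNA sequence was at hand, so whether the 8 bases match part of either siRNA was not tested.

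**Figure D3:**
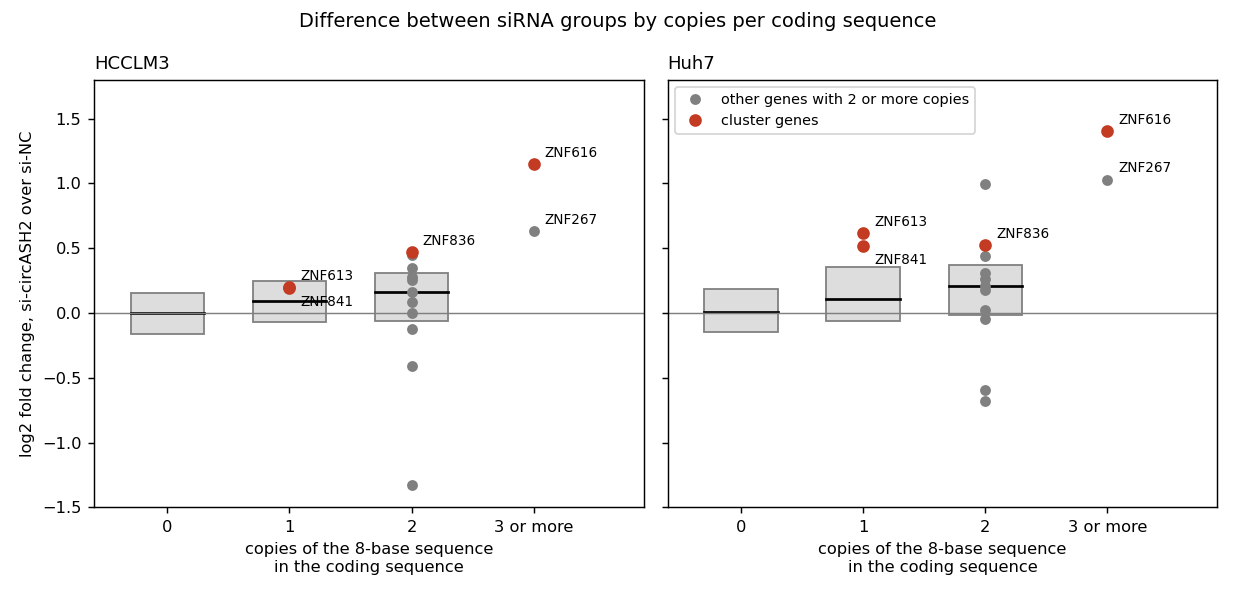
Log2 fold change (si-circASH2 over si-NC, vertical axis) by the number of copies of the 8-base sequence in a gene's coding sequence, HCCLM3 left of Huh7. Grey boxes span the quartiles over all genes searched with the median as a black line, grey points are genes outside the cluster with at least 2 copies and red points are cluster genes; ZNF616 lies at 1.15 in HCCLM3 and 1.41 in Huh7, above ZNF267 at 0.63 and 1.03.

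The lines differed far more than the siRNA groups, and the difference followed position in part. Between the si-NC groups, 13 members were higher in HCCLM3 than in Huh7, 20 were lower and 2 (ZNF816 and ZNF845) did not pass, where 41.6% of all tested features were higher and 43.6% lower. The 10 consecutive members from ZNF613 to ZNF480 were all higher in HCCLM3. Of the 10, ZNF836 had the largest log2 fold change (HCCLM3 over Huh7, 2.64 ± 0.19) and ZNF614 the smallest (0.65 ± 0.08), and ZNF616 had 1.97 ± 0.11. ZNF432 was at 34.9, 38.05 and 30.7 CPM in HCCLM3 si-NC against 6.13, 7.31 and 6.82 CPM in Huh7 si-NC. Telomeric of ZNF480, members higher in HCCLM3 were ZNF600 (1.28 ± 0.11) and ZNF765 (0.66 ± 0.10), and centromeric of ZNF613 it was ZNF175 (1.85 ± 0.14).

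Of the 20 lower members, 10 were under 10 counts in every HCCLM3 library and measured in Huh7. ZNF160, a KRAB zinc finger gene reported to repress TLR4, was at 0 counts in all HCCLM3 libraries, against 23.2, 25.7 and 27.02 CPM in Huh7 si-NC. Set against a floor of 3 counts over the group, it was at least 750-fold lower in HCCLM3 si-NC than in Huh7 si-NC. On the same floor ZNF83 was at least 354-fold lower and ZNF880 at least 333-fold lower, and ZNF415 and ZNF347 were each at least 89.3-fold lower. ZNF665 was at least 32.3-fold lower. ZNF331 had 3 counts over the HCCLM3 si-NC libraries against 2018 over the Huh7 si-NC libraries, a ratio of 658 after scaling for depth (95% counting interval 225 to 3188). ZNF320 had 6 counts against 2392, a ratio of 390 (179 to 1062). ZNF808, whose loss in humans causes pancreatic agenesis, had 4 counts against 235, a ratio of 57.4 (22.4 to 211). The intervals cover counting error only. ZNF701 had 4 counts against 43, a ratio of 10.5 (4.10 to 38.6), and was low in both lines. These genes passed the filter through Huh7 alone, so that they differ between the lines follows from the filter.

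**Figure D4:**
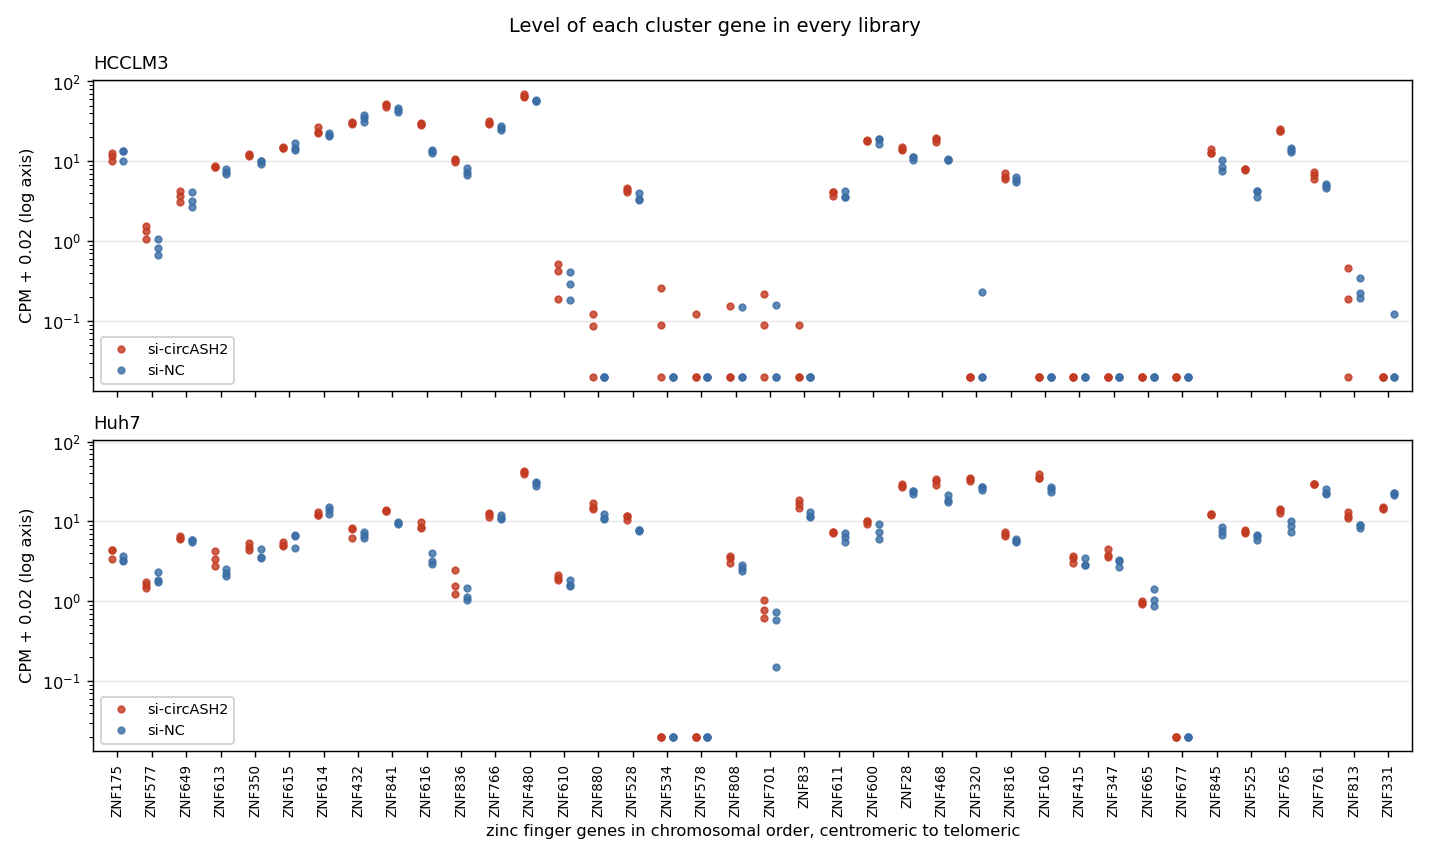
CPM plus 0.02 (vertical log axis) of the 38 members in chromosomal order in each library, HCCLM3 above Huh7, red for si-circASH2 and blue for si-NC; points at the bottom are libraries with no count. In HCCLM3 a run from ZNF613 to ZNF480 lies well above 0 while ZNF160, ZNF415, ZNF347 and ZNF665 have no count, and in Huh7 3 members, ZNF534, ZNF578 and ZNF677, have none.

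Members silent in HCCLM3 lay partly in runs. From ZNF534 to ZNF83 and from ZNF160 to ZNF677, every member was under 10 counts in all HCCLM3 libraries. Of these, ZNF534, ZNF578 and ZNF677 were also under 10 counts in Huh7. ZNF880, ZNF320 and ZNF331 were silent outside these runs. ZNF880 lies between ZNF610, at a mean of 0.27 CPM in HCCLM3 si-NC, and ZNF528, at 3.52 CPM there. ZNF813, beside ZNF331, was also near the floor in HCCLM3 si-NC, at a mean of 0.23 CPM against 8.72 CPM in Huh7 si-NC. ZNF320, with 6 counts in HCCLM3 si-NC, overlaps ZNF468, which had 10.5 to 10.6 CPM there, and ZNF160 lies between ZNF816, at 5.46 to 6.41 CPM in HCCLM3 si-NC, and ZNF415, with none. Between the si-circASH2 groups, 13 members were higher in HCCLM3 than in Huh7 and 18 lower, where 41.4% of all tested features were higher and 43.6% lower. Both contrasts between the lines share no library, but they compare the same lines. ZNF616 was higher in HCCLM3 by 1.72 ± 0.09 on the log2 scale between the si-circASH2 groups.

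On a scale per gene length, the deposited FPKM, levels of different members can be compared within a group. In HCCLM3 si-NC the highest were ZNF841 (11.3 FPKM), ZNF480 (10.8 FPKM) and ZNF432 (7.72 FPKM), and ZNF616 was at 3.14 FPKM (means, n = 3). In Huh7 si-NC the highest were ZNF160 (5.87 FPKM), ZNF480 (5.67 FPKM), ZNF761 (5.37 FPKM) and ZNF320 (5.16 FPKM), and ZNF616 was at 0.77 FPKM. With si-circASH2, ZNF616 was at 6.50 FPKM in HCCLM3 and 1.93 FPKM in Huh7. ZNF616 was therefore a moderate transcript of the cluster in HCCLM3 and a low one in Huh7.

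Promoter sequences of RefSeq (GRCh38.p14), 250 bases before to 50 after the start, were found for 32 of the 38 members. The number of CG pairs was counted in each, and both strands give the same count. The 9 matched members silent in HCCLM3 alone had 17 to 30 CG pairs (median 26), and the 20 matched members measured in HCCLM3 had 14 to 30 (median 25). All members matched thus had at least 14, which 50.13% of 27305 promoters reach. The promoters of ZNF616 and ZNF468, active in both lines, and of ZNF160, at 0 counts in HCCLM3, are shown for comparison, with CG pairs in capitals, all on the minus strand.
ZNF616 promoter: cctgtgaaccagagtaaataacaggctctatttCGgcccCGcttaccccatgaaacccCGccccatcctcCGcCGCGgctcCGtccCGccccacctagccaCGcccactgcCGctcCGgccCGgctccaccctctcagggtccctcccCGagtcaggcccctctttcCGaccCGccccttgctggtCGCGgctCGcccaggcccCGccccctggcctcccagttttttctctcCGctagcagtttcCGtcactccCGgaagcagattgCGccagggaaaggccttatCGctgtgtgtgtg
ZNF468 promoter: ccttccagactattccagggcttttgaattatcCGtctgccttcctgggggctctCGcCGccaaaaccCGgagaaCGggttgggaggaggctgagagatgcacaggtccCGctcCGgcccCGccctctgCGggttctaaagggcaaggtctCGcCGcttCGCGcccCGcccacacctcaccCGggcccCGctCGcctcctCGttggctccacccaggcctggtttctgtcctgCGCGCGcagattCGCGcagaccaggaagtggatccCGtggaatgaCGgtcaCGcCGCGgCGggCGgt
ZNF160 promoter: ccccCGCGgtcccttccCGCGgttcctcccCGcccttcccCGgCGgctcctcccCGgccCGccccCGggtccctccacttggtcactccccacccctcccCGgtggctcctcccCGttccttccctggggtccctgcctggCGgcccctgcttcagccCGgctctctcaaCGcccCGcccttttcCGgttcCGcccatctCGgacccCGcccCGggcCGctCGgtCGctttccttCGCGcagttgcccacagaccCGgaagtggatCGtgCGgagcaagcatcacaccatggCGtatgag
ZNF616 (chr19:52139889-52140188) had 24 CG pairs, ZNF468 (chr19:52857570-52857869) had 30 and ZNF160 (chr19:53103373-53103672) also had 30. The RefSeq promoter of ZNF468 lies inside the GENCODE span of that gene (chr19:52838008-52890375). It covers the GENCODE start of ZNF28, on the same strand, at base 52857600. Methylation was not measured, and a count of CG pairs says nothing of it.

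Other genes around and within the cluster were mostly higher in HCCLM3. Within 2 Mb on the centromeric side, 30 of 42 tested genes were higher and 8 lower between the si-NC groups (HCCLM3 over Huh7, median log2 fold change 0.90). Within 2 Mb on the telomeric side 32 of 43 were higher and 5 lower (median 0.81), beside -0.04 over all tested features. Of all tested features, 41.6% were higher and 43.6% lower. PPP2R1A, the scaffold subunit of protein phosphatase 2A and no zinc finger gene, lies inside the cluster and was at 352 ± 7.04 CPM in HCCLM3 si-NC against 166 ± 4.88 CPM in Huh7 si-NC (SD, n = 3 each; log2 fold change 1.09 ± 0.04, edgeR adjusted p = 7.98e-19). Between the siRNA groups, 15.1% of all tested features rose and 15.5% fell in HCCLM3, and 16.3% rose and 15.1% fell in Huh7. Of the 42 centromeric genes, 10 rose and 3 fell in HCCLM3, and 14 rose and 5 fell in Huh7. On the telomeric side 1 of 43 rose and 7 fell in HCCLM3, and 4 rose and 5 fell in Huh7. Rises were thus also found centromeric of the cluster. PPP2R1A gave 0.02 ± 0.04 in HCCLM3 and -0.05 ± 0.04 in Huh7 on the log2 scale, and neither passed. Of the 6 tested genes on the list of neighbours, which included PPP2R1A, 6 were higher in HCCLM3 si-NC than in Huh7 si-NC, and with si-circASH2 0 rose and 4 fell in HCCLM3 while 1 rose and 0 fell in Huh7.

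Other zinc finger clusters of chromosome 19 were counted in the same way, beside 15.1% of all tested features that rose and 15.5% that fell in HCCLM3, and 16.3% that rose and 15.1% that fell in Huh7. In 19p12, 7 of 24 tested genes (29.2%) rose and 0 fell with si-circASH2 in HCCLM3, and 10 (41.7%) rose and 0 fell in Huh7. In 19q13.31, 4 of 18 (22.2%) rose and 0 fell in HCCLM3, and 5 (27.8%) rose and 0 fell in Huh7. In 19q13.43, 6 of 40 (15%) rose and 1 (2.5%) fell in HCCLM3, and 10 (25%) rose and 1 (2.5%) fell in Huh7. Of these shares, only the one that rose in HCCLM3 was near that of all features. Over all 437 tested genes named ZNF and a number, cluster members included, 86 (19.7%) rose and 16 fell in HCCLM3, and 87 (19.9%) rose and 30 fell in Huh7. Whether the cluster around ZNF616 differs from the other clusters was not tested. Between the lines, 41.6% of all tested features were higher and 43.6% lower in HCCLM3 si-NC than in Huh7 si-NC. Of the 24 tested genes in 19p12, 0 were higher and 21 (87.5%) lower. The 19q13.31 cluster had 9 of 18 (50%) higher and 3 (16.7%) lower. The 19q13.43 cluster had 14 of 40 (35%) higher and 19 (47.5%) lower.

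The proteins that KRAB zinc finger proteins work through showed both directions. Of 20 tested cofactor genes, 7 (35%) rose and 4 (20%) fell with si-circASH2 in HCCLM3, where 15.1% of all tested features rose and 15.5% fell. In Huh7, 4 (20%) rose and 7 (35%) fell, where 16.3% of all tested features rose and 15.1% fell. TRIM28, the corepressor itself, was at 506 ± 12.9 CPM in HCCLM3 si-circASH2 against 452 ± 5.80 CPM in HCCLM3 si-NC, and at 418 ± 22.8 CPM in Huh7 si-circASH2 against 481 ± 12.8 CPM in Huh7 si-NC (SD, n = 3 each). It rose by 0.16 ± 0.04 on the log2 scale in HCCLM3 (edgeR adjusted p = 0.00125) and fell by 0.20 ± 0.04 in Huh7 (edgeR adjusted p = 0.000123), and the difference between the lines passed (0.37 ± 0.05, edgeR adjusted p = 1.20e-05). DNMT3B, a de novo DNA methyltransferase, fell in both lines, with log2 fold changes of -0.44 ± 0.07 in HCCLM3 (edgeR adjusted p = 3.87e-05) and -0.43 ± 0.07 in Huh7 (edgeR adjusted p = 1.70e-05). MORC2, a partner of the HUSH silencing complex, fell by 0.32 ± 0.04 in HCCLM3 (edgeR adjusted p = 1.11e-06) and by 0.40 ± 0.04 in Huh7 (edgeR adjusted p = 2.99e-08). CBX5 also fell past the threshold in both lines, while HDAC1 rose past it in both. SETDB1 passed in neither line (-0.01 ± 0.04 in HCCLM3 and 0.05 ± 0.05 in Huh7). Between the si-NC groups, SETDB1 was higher in HCCLM3 by 1.04 ± 0.04, and DNMT3A, the other de novo methyltransferase, was at 2.62 ± 0.55 CPM in HCCLM3 against 63.9 ± 0.14 CPM in Huh7 (SD, n = 3 each; log2 fold change -4.61 ± 0.11, edgeR adjusted p = 4.21e-20).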

How the data were processed

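RNA-seq of 12 libraries in 4 groups of 3 was analysed, grouped by the labels. The deposited table gives counts per gene per library, per the file headers; the second deposited table gives FPKM, which the authors scaled for length and library size, used only for levels between genes and for ZNF525. A SMARTer kit was used for the libraries, per the labels' protocols. The aligner, counting tool and strandedness are unstated in the labels and headers; builds hg38, GRCm38 and mm10 are listed, without a role, per the submitters' processing notes.

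Differences came from edgeR 4.0.16 (R 4.3.3) on the counts as deposited, with TMM-scaled CPM (filterByExpr minimum count of 10, TMM, robust quasi-likelihood fit over all 4 groups, 16946 features tested, 8 residual degrees of freedom, common biological coefficient of variation 5.65%, Benjamini-Hochberg threshold 0.05 over all features). There were 5 comparisons, the siRNA groups in each line, their difference, and the lines under each siRNA. The fit was tested on simulated counts. The members and lists were chosen with earlier results of these data known. Every member may be named; full values go to ZNF616 and up to 6 members per comparison with the largest absolute log2 fold change past the threshold at 1 CPM or more in the higher group. Coding sequences were searched after the members' values were seen. Coordinates are from GENCODE 29 (GRCh38). ZNF888 is not analysed here. The labels do not say whether replicate numbers pair the samples, and the reported fit did not pair them. Between libraries of the same number, deviations from the group means had correlations between -0.041 and 0.060. Taken over all tested genes with 3 libraries per group, these cannot exclude a shared batch. Alternatives were DESeq2 1.42.0, RLE size factors, no filter on low counts, each line fitted alone, a replicate block and each library left out.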

Additional observations from a re-analysis of the deposited data

Results flagged for a closer look

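The effect of the siRNA differed between the lines past the threshold of the difference itself (edgeR quasi-likelihood, HCCLM3 minus Huh7) for 3 cluster genes. The difference was 0.76 on the log2 scale for ZNF525, -0.32 for ZNF841 and -0.24 for ZNF480. For ZNF841 and ZNF480 both lines were higher with si-circASH2, and the value was smaller in HCCLM3. For ZNF525 the value was larger in HCCLM3. The cluster genes were chosen with these values known.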

How the results depend on the processing

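Fold changes of the genes given values were recomputed under each alternative, and 4 of those in HCCLM3, none past the threshold, changed sign when a library was left out: ZNF600 lay between -0.071 and 0.030, ZNF175 between -0.211 and 0.0086, ZNF615 between -0.117 and 0.039 and SETDB1 between -0.027 and 0.012. The others kept their sign. Members higher with si-circASH2 numbered 9 to 13 in HCCLM3 and 13 to 17 in Huh7 over all alternatives. Members lower in HCCLM3 numbered 0 in the reported edgeR fit, 1 with DESeq2 (ZNF320), 1 with each line fitted alone (ZNF432), 1 with the replicate block (ZNF320), and 0 to 2 when a library was left out (2 without HCCLM3 si-NC replicate 3). Members lower in Huh7 numbered 1 to 2 (2 without Huh7 si-NC replicate 2). Members with a positive difference between the lines numbered 1 to 4 when a library was left out (4 without HCCLM3 si-circASH2 replicate 2; 2 without HCCLM3 si-NC replicate 2 or Huh7 si-NC replicate 2), and those with a negative difference 1 to 4 (4 without HCCLM3 si-NC replicate 1 or 3; 1 without HCCLM3 si-NC replicate 2, HCCLM3 si-circASH2 replicate 2 or Huh7 si-circASH2 replicate 3). The cause was not tested. Calls were lost for ZNF350 in 7 alternatives in HCCLM3 and 12 in Huh7, for ZNF836 in 4, ZNF841 in 2 and ZNF766 in 2 in HCCLM3, for ZNF613 in 1 and ZNF600 in 1 in Huh7, and for ZNF480 on the difference between the lines in 5. Values that first passed under an alternative were ZNF432 in 2 and ZNF528 in 1 in HCCLM3, and ZNF836 in 2 and ZNF615 in 1 in Huh7. The replicate block moved no other count of members by over 1.5 times. At this depth a member under 3 counts in a library (0.0981 to 0.105 CPM) could not be told from 0, so siRNA effects on the silent members in HCCLM3 were not measurable.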
